A study of Rattus norvegicus and Homo sapiens with 12 samples.

Results

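DU145 is an established human prostate cancer cell line that was derived from a brain metastasis and is known to grow without androgen. The unselected population, named F0 or parental, was grown in DMEM with 10% FBS and had not been exposed to the conditioned medium of mesenchymal stem cells (MSCs) that was used to select the F2 population. RNA of 3 F0 DU145 samples was profiled by QuantSeq, which sequences the 3′ end of polyadenylated RNA. These are 3 of the 12 samples of the series, which also holds F2 DU145 and the F0 and F2 populations of the rat line PAIII. Only the 3 F0 DU145 libraries were used, chosen by their labels, and every gene row of the human table (60107 rows) was scaled to CPM, the counts of a gene for every 1000000 gene counts of its library. The description of the series calls the samples biological replicates without saying how they were separated, so the spread given here is that between these libraries and may be partly technical.

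A prostate gland carries luminal cells, which make simple keratins and the secreted proteases of the kallikrein family, and basal cells, which make TP63 and the keratins of stratified epithelia. Rare neuroendocrine cells make chromogranins. Carcinoma lines can lose parts of these programs and can make proteins of mesenchymal cells, such as vimentin, beside keratins. The question addressed here is which of these programs, receptors and secreted factors the unselected cells expressed, and which genes were silent.

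The libraries held 16479239, 16029876 and 16359838 gene counts. Reads come from the 3′ end of a transcript whatever its length, so CPM values are compared between genes without dividing by length. A gene was called expressed where each of the 3 libraries reached 1 CPM, and at the floor where each had 3 counts or fewer, which is 0.182 to 0.187 CPM. Of 19628 protein-coding genes of GENCODE release 29, 11405 (58.1%) were expressed and 6386 (32.5%) were at the floor, of which 5002 had no count in any library. The expressed protein-coding genes had a median of 27.3 CPM, and 105 protein-coding genes had a mean of 1000 CPM or more. Counts were concentrated, with 611 genes holding 50% of them. Pearson's r of log2(CPM + 1) across the expressed genes, which are not independent replicates, was between 0.995 and 0.997 for the 3 pairs of libraries.

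The markers given for the line, KRT8, KRT18, CDH1, VIM and EGFR, are described first. This is no test of its label, since no other line was compared. KRT8 and KRT18 encode the paired keratin filaments of simple epithelia. KRT18 was measured at 481, 497 and 518 CPM in replicates 1, 2 and 3, with a mean of 499 ± 18.9 (SD, n = 3, as for all values given with ±). KRT8 was measured at 250.0, 287 and 322 CPM, with a mean of 286 ± 36.0, and was below KRT18 in each library. The VIM level, for the intermediate filament of mesenchymal cells, was 1383, 1493 and 1571 CPM, with a mean of 1482 ± 94.3. VIM thus lay above both keratins in every library, 2.97 ± 0.0808 times the level of KRT18 and 5.20 ± 0.327 times that of KRT8. EGFR, the receptor of epidermal growth factor, was measured at 195, 211 and 205 CPM, with a mean of 204 ± 8.06. CDH1, which encodes the adherens junction protein E-cadherin, had the lowest level of the 5 markers, at 12.3, 15.5 and 15.5 CPM and a mean of 14.4 ± 1.87. A chi-square test of a gene's counts against the library totals, with Benjamini-Hochberg adjustment at 0.05 over 15813 genes with at least 15 counts in sum, was used to ask whether libraries differed beyond counting error. It called 13.5% of all genes tested and 20.4% of those with a mean of 10 CPM or more, as all 5 markers had. Of the 5 markers it called 4, KRT8, KRT18, VIM and EGFR, but not CDH1, which had the fewest counts. All 5 markers were expressed in all 3 libraries, CDH1 at rank 7561 and VIM at rank 64 of the protein-coding genes. KRT8 and KRT18 have many processed pseudogenes, and reads with several alignments were not assigned to a gene. The order of KRT8 and KRT18 with other keratins and their ratios to VIM are therefore uncertain. The 122 pseudogene rows of KRT7, KRT8, KRT18 and KRT19 together held 3.84 CPM. This sum does not bound the loss, since reads that align to both a keratin and a pseudogene would be in neither row.

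Since these libraries are primed at the poly(A) tail, the last 30 bases of the annotated transcript of each marker are shown, where the signal for polyadenylation usually lies. Capitals mark AATAAA or ATTAAA, searched on the transcript strand alone in the GENCODE release 29 transcripts (GRCh38, inside the 3′ UTR).
KRT8: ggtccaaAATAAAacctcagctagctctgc
KRT18: gcaggaggccAATAAAaagttcagagttca
VIM: ttctgcttcAATAAAtctttggaaaaactc
CDH1: ATTAAAcaattttgttaaaccattgtcaaa
EGFR: taataataataatgtattctttgttaacaa
They lie at chr12:52897194-52897223 (minus strand), and at chr12:52952872-52952901, chr10:17237564-17237593, chr16:68835519-68835548 and chr7:55211599-55211628 (plus strand). The window of EGFR holds neither hexamer. AATAAA was in this window for 50.8% and ATTAAA for 13.9% of 19298 protein-coding genes with such a transcript, and 1 or both of these hexamers were there for 66.5% of 11378 expressed genes and 55.8% of 6109 genes at the floor.

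Keratins of simple epithelia had the highest levels of their family. Of 55 keratin genes, 9 were expressed in all 3 libraries (16.4%, beside 58.1% of protein-coding genes), and 42 were at the floor (76.4%, beside 32.5%). KRT7 led at 630.2, 615 and 619.6 CPM, above KRT18 in every library. KRT19, a keratin of ductal epithelia, was at 278, 263 and 246 CPM, a range that overlapped with that of KRT8. KRT10, a keratin known from suprabasal epidermis, was at 163, 175 and 187 CPM and KRT80 at 98.7, 93.5 and 98.7 CPM. Of the hair-type keratins, KRT81 was at 22.0 ± 2.19 CPM and KRT86 at 6.54 ± 0.771 CPM. KRT15 had a mean of 2.64 ± 0.543 CPM, and KRT4 had a mean of 1.23 ± 0.224 CPM with 1 library, replicate 1, under 1 CPM. KRT5 and KRT14, the keratin pair of basal cells, had 0 counts in each library.

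**Figure D1:**
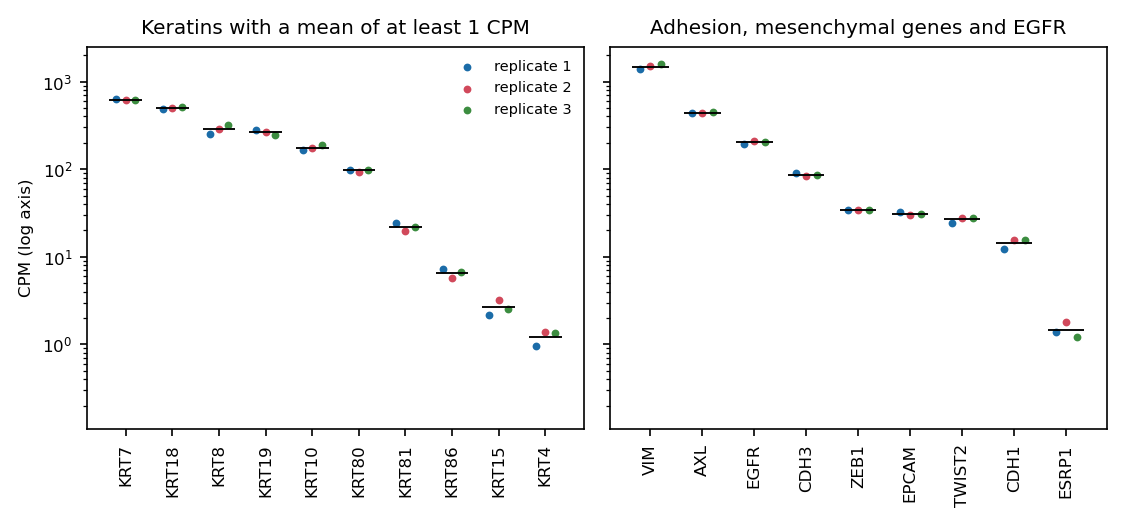
CPM on a log axis in each of the 3 F0 DU145 libraries (coloured points) with their mean (black line), for keratins with a mean of at least 1 CPM (left) and for adhesion, mesenchymal and receptor genes (right). KRT7, KRT18, KRT8, KRT19 and KRT10 lay above 100 CPM in every library, VIM lay above all keratins, and CDH1 lay below CDH3, ZEB1 and EPCAM.

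Epithelial junction and surface genes were mostly expressed. Of 29 epithelial markers, 24 were expressed in all 3 libraries (82.8%, beside 58.1% of all protein-coding genes), with a median of 17.9 CPM over all 29, and 2 were at the floor. The junction genes with the highest levels were DSG2, a desmosomal cadherin, at 146 ± 5.23 CPM and TJP1, a tight junction scaffold, at 121 ± 6.86 CPM. The P-cadherin gene CDH3 was measured at 91.2, 82.7 and 86.4 CPM, 6.12 ± 1.15 times the level of CDH1 and above it in each library. EPCAM, an epithelial adhesion protein, was at 32.8, 29.6 and 30.8 CPM, also above CDH1 in each library. The splicing regulators of epithelial cells differed in level, with ESRP2 at 17.9 ± 1.73 CPM and ESRP1 at 1.48 ± 0.301 CPM. GRHL2, a transcription factor of epithelial cells, had 0 counts in every library, and OVOL1 had 2, 0 and 1 counts. Within the list, 9 of 23 neighbours in the order of expressed members had ranges that overlapped, among them ELF3, CDH1 and MUC1.

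Mesenchymal genes ranged widely in level. Of 23, 11 were expressed, 6 of them with a mean of 10 CPM or more, and 8 were at the floor (34.8%, beside 32.5% of protein-coding genes), all 8 with 0 counts, and the median was 1.27 CPM. AXL, a receptor tyrosine kinase often raised in mesenchymal-like carcinoma cells, was at 434, 437 and 447 CPM, below VIM in every library. ZEB1, a repressor of E-cadherin, was at 34.5, 34.4 and 34.5 CPM, and its ratio to CDH1 was 2.42 ± 0.343. TAGLN, an actin-binding protein of smooth muscle, was at 33.9 ± 4.70 CPM and its range overlapped with that of ZEB1. TWIST2, a transcription factor of mesenchyme, was at 26.8 ± 1.99 CPM, while TWIST1 had 0 counts. S100A4, a calcium-binding protein, was at 18.96 ± 1.89 CPM. Other regulators were low, with SNAI1 at 3.30 ± 0.681 CPM, SNAI2 at 1.86 ± 0.229 CPM and ZEB2 at 21, 9 and 8 counts. FN1, for fibronectin, was at 5.03 ± 0.288 CPM, and CDH2, for N-cadherin, had 0 counts, as had CDH11, SPARC, COL3A1, POSTN, LUM and DCN.

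The secretory markers of the labelled tissue, prostate, were absent at this depth. Of 26 genes of luminal prostate cells and their response to androgen, 14 were at the floor (53.8%, beside 32.5% of protein-coding genes) and 11 were expressed. KLK2, KLK4, HOXB13, FOLH1, ACPP (ACP3), MSMB, TRPM8 and PCA3 had 0 counts in each library. Levels below the floor of 3 counts, 0.182 to 0.187 CPM, were not told from 0. KLK3, which encodes prostate-specific antigen, had 0, 0 and 1 counts. TMPRSS2 had 2, 0 and 0 counts. Among transcription factors of prostate epithelium, FOXA1 was at 48.8, 50.5 and 49.5 CPM and GATA2 at 27.4, 27.0 and 27.1 CPM, and their ranges did not overlap. The list was led by PMEPA1 at 143 ± 3.53 CPM, NDRG1 at 72.1 ± 1.002 CPM and FKBP5 at 70.7 ± 4.22 CPM, which are known to respond to androgen but also to other pathways. STEAP2 and STEAP1, surface metalloreductases, were at 12.1 ± 2.36 and 10.6 ± 2.13 CPM and differed between libraries beyond counting error.

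Basal genes divided by kind. The defining genes TP63, KRT5 and KRT14 had 0 counts in all 3 libraries, and NGFR had 5, 5 and 3 counts. Genes for attachment to the basement membrane were expressed. DST, with a form that links keratin to hemidesmosomes, was at 314, 305 and 297 CPM, and counts per gene do not tell its forms apart. LAMB3 was at 227, 218 and 209 CPM, and the hyaluronan receptor CD44 was at 154, 138 and 149 CPM. ITGA6, the integrin subunit of hemidesmosomes, was at 83.5 ± 7.36 CPM, and its partner ITGB4 was at 8.47 ± 0.285 CPM. FHL2, a LIM-domain cofactor, was at 65.1 ± 1.77 CPM. In all, 12 of 17 basal genes were expressed (70.6%, beside 58.1% of protein-coding genes) and 3 were at the floor (17.6%, beside 32.5%).

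Neuroendocrine genes were mostly at the floor, 14 of 19 (73.7%, beside 32.5% of protein-coding genes), with 3 expressed. DLL3, an inhibitory Notch ligand, was at 35.7, 34.2 and 40.8 CPM and ENO2, a glycolytic enzyme of neurons, at 23.2, 20.2 and 18.7 CPM. SYP, for synaptophysin, was near the detection limit at 1.27 ± 0.182 CPM. CHGA had 1, 0 and 0 counts, CHGB had 0, and NCAM1 had 0, 1 and 1. The neural factors NEUROD1, INSM1 and SRRM4 had 0 counts, and POU3F2 had 6, 5 and 7.

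**Figure D2:**
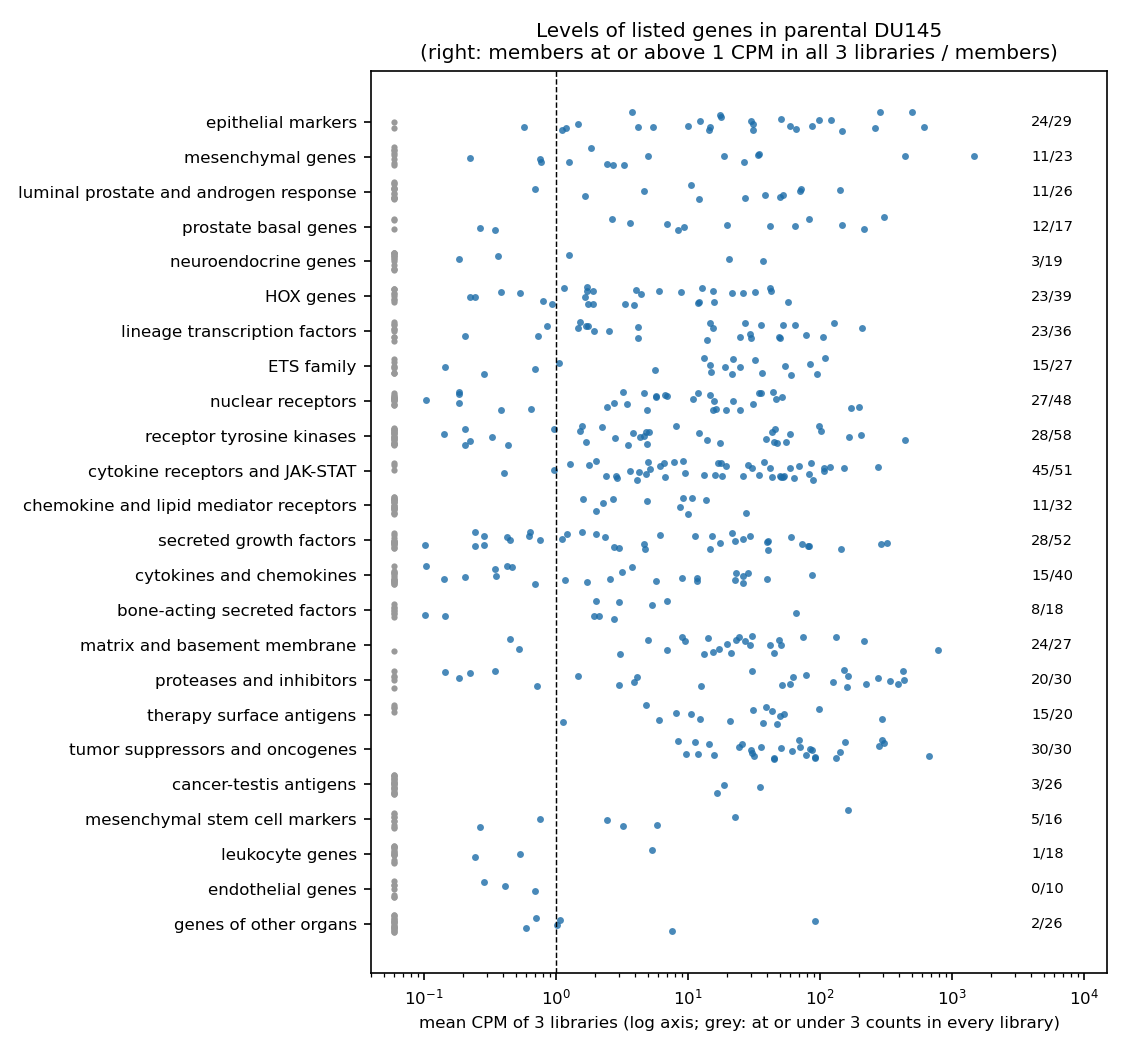
Mean CPM over the 3 F0 DU145 libraries (log axis) of each member of the 24 gene lists (rows), with members at or under 3 counts in every library drawn in grey at the left edge and the line at 1 CPM dashed. The numbers at the right give expressed members over all members, from 0 of 10 endothelial genes to 30 of 30 tumor suppressors and oncogenes.

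Among 36 lineage transcription factors, 23 were expressed (63.9%, beside 58.1% of protein-coding genes) and 9 were at the floor (25%, beside 32.5%). NKX2-1, a homeobox factor known from lung and thyroid, had the highest level of the list, at 199.9, 215 and 214 CPM. TFAP2A, a factor of ectodermal and neural crest cells, followed at 118, 134 and 133 CPM. PITX1, a homeobox factor of the hindlimb and pituitary, was at 112, 104 and 99.4 CPM. These 3 ranges did not overlap with each other. SOX4 was at 79.1 ± 5.65 CPM and TFAP2C at 65.0 ± 2.24 CPM. Of the GATA and FOXA factors listed first, GATA6 was at 1.64, 0.936 and 2.02 CPM, FOXA2 at 1.47 ± 0.203 CPM, and GATA3 at 10, 23 and 9 counts. SOX2, MYCN, CDX2 and HNF4A had 0 counts. MYC was at 26.6, 27.6 and 35.7 CPM and differed between libraries beyond counting error.

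HOX genes, whose order along each cluster follows the body axis in which they act, were expressed mainly from 3 of the 4 clusters. Of 39 genes, 23 were expressed (59.0%, beside 58.1% of protein-coding genes) and 9 were at the floor (23.1%, beside 32.5%). The summed level was 99.7 ± 1.71 CPM for HOXA on chromosome 7, 129 ± 4.16 for HOXB on chromosome 17 and 101 ± 1.83 for HOXC on chromosome 12, against 6.03 ± 0.995 for HOXD on chromosome 2. In HOXD, 1 of 9 genes was expressed, HOXD9 at 4.43 ± 0.786 CPM, and 5 were at the floor. HOXB7 had the highest level, at 59.1, 57.5 and 56.7 CPM. It was followed by HOXA10 at 42.6 ± 1.98 and HOXC9 at 42.0 ± 1.93 CPM, whose ranges overlapped, and by HOXB5 at 32.2 ± 2.29 CPM and HOXA3 at 26.1 ± 2.06 CPM. Next came HOXC10 (21.8 ± 1.97), HOXC6 (15.9 ± 1.40), HOXB6 (15.6 ± 1.24), HOXB9 (12.7 ± 1.19), HOXC8 (12.2 ± 1.57) and HOXA5 (11.9 ± 0.901 CPM). Among those below 10 CPM on average were HOXA11 (8.89 ± 1.40), HOXC13 (6.10 ± 0.808), HOXB3 (4.06 ± 0.983) and HOXB8 (3.33 ± 0.273 CPM). The lowest expressed members, with ranges that overlapped from neighbour to neighbour, were HOXA13, HOXB4, HOXC4, HOXA2, HOXC11 and HOXB2, with means of 1.68 to 1.92 CPM. HOXA4, between expressed neighbours, had 5, 1 and 5 counts, and HOXB13, the prostate member, had 0. The annotated span of HOXA4 lies within that of HOXA3 on the same strand. So do those of HOXA5, which was expressed, and HOXA6, which had 10, 4 and 5 counts. Reads placed in both HOXA3 and a gene within it would stay out as ambiguous, which was not tested. None of the 28 HOX genes with enough counts for the test differed between libraries beyond counting error by the chi-square test, beside 13.5% of all genes tested, and 4 had an unadjusted p under 0.05. Of these 28 genes, 11 had a mean of 10 CPM or more, the level at which 20.4% of genes were called.

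**Figure D3:**
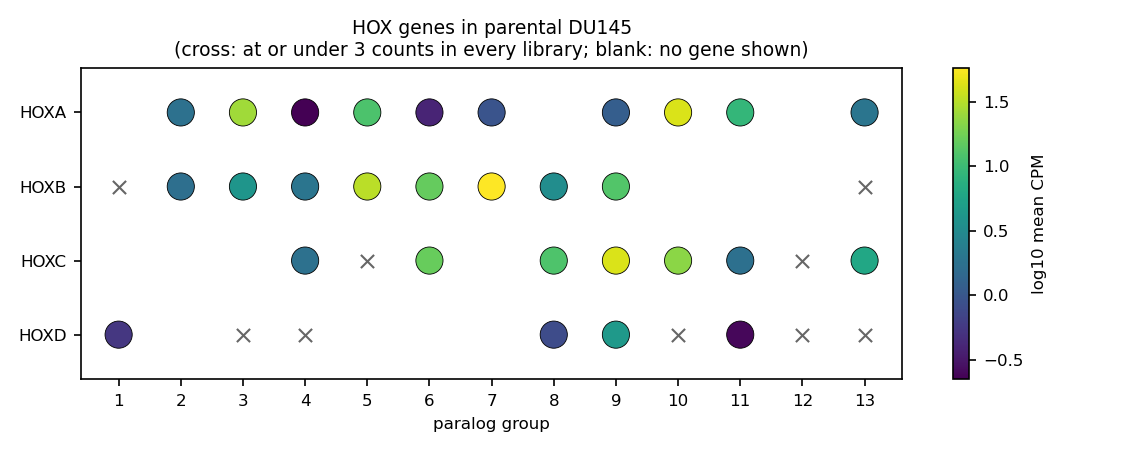
Mean level of 38 of the 39 HOX genes (colour, log10 of the mean CPM over 3 F0 DU145 libraries) by cluster (rows) and paralog group (columns), with crosses for genes at or under 3 counts in every library. HOXA, HOXB and HOXC were filled over most of their length, while HOXD held crosses at 5 of 9 genes.

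ETS factors, which include the partners of gene fusions in prostate cancer, were expressed in 15 of 27 cases (55.6%, beside 58.1% of protein-coding genes). ETS1 was at 105, 111 and 112 CPM, ETS2 at 95.1 ± 2.23 CPM and ETV5 at 84.8 ± 2.53 CPM, ranges that did not overlap, followed by ERF at 60.2 ± 7.23 CPM and ELK3 at 54.4 ± 1.12 CPM, which did. Of the fusion partners besides ETV5, ERG had 2, 3 and 9 counts, ETV1 had 1, 6 and 0, and ETV4 was at 13.7, 11.6 and 14.3 CPM. ETV3 was at 5.69 ± 0.171 CPM, and ETV2 had a mean of 1.06 ± 0.217 CPM.

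Of 48 nuclear receptors, 27 were expressed (56.25%, beside 58.1% of protein-coding genes). At the floor were 15 (31.25%, beside 32.5%), 13 of them with 0 counts. The steroid receptors were uneven. NR3C1, the glucocorticoid receptor, led the family at 203, 199 and 194 CPM, whereas ESR2 had 0 counts, ESR1 had 0, 1 and 0, and PGR had 2, 6 and 1. NR2F2, an orphan receptor of mesenchyme and endothelium, was at 177, 168 and 170.1 CPM, below NR3C1 in every library. RXRA, the common partner of this family, was at 51.5 ± 0.324 CPM. ESRRA and NR2F6 were at 46.6 ± 0.879 and 44.0 ± 1.43 CPM.

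Of 58 receptor tyrosine kinases, 28 were expressed (48.3%, beside 58.1% of protein-coding genes). At the floor were 23 (39.7%, beside 32.5%), and the median of the list was 0.698 CPM. AXL had the highest level, 2.15 ± 0.0796 times that of EGFR. EPHA2, an ephrin receptor, was at 126, 174 and 197 CPM, a range that overlapped with that of EGFR, and differed between libraries beyond counting error. MET, the receptor of hepatocyte growth factor, was at 104, 96.2 and 107 CPM and FGFR1 at 102, 100.1 and 94.5 CPM, and their ranges overlapped. Within the ERBB family, ERBB2 was at 42.7, 37.2 and 37.7 CPM, ERBB3 at 8.92, 7.99 and 7.34 CPM and ERBB4 at 0, 1 and 0 counts. EGFR was 5.23 ± 0.579 times the level of ERBB2. KDR, TEK, PDGFRB and NTRK2 had 0 counts, KIT had 4, 2 and 4, and RET had 2, 1 and 7.

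Ligands of EGFR were expressed beside the receptor. AREG, for amphiregulin, was at 303, 292 and 284 CPM and EREG, for epiregulin, at 133, 149 and 149.6 CPM. HBEGF was at 85.5, 81.7 and 79.6 CPM and TGFA at 28.9, 29.9 and 30.3 CPM, and EGF had 2, 1 and 9 counts. In each library the order was AREG, EREG, HBEGF and TGFA. Over the whole list, 28 of 52 secreted growth factors were expressed (53.8%, beside 58.1% of protein-coding genes). At the floor were 14 (26.9%, beside 32.5%), and the median of the list was 1.39 CPM. CYR61 (CCN1), a matricellular protein, had the highest mean, at 295, 339 and 333 CPM, and its range overlapped with that of AREG. VEGFA, the angiogenic factor, was at 82.0 ± 4.71 CPM. HGF, the ligand of MET, IGF1, FGF7 and FGF10 had 0 counts.

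**Figure D4:**
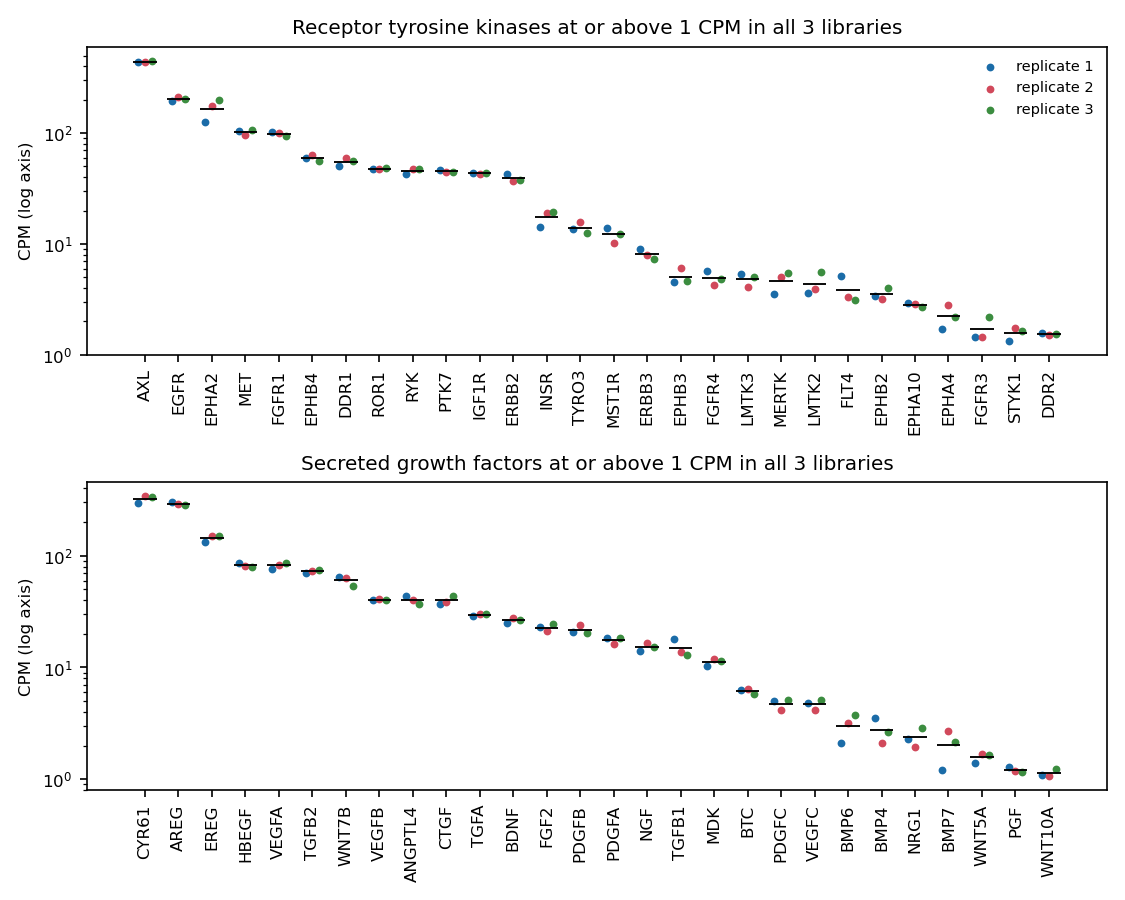
CPM on a log axis in each F0 DU145 library (points) with the mean (line), for the 28 expressed receptor tyrosine kinases (top) and the 28 expressed secreted growth factors (bottom), ordered by mean. AXL stood above EGFR, and CYR61 and AREG above EREG, in every library.

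Cytokine receptors and the JAK and STAT proteins that carry their signal were expressed in 45 of 51 cases, with a median of 17.0 CPM. The share was 88.2%, beside 58.1% of protein-coding genes. STAT3 had the highest level, at 279, 277 and 278 CPM. TNFRSF1A was at 151 ± 1.89 CPM, the oncostatin M receptor OSMR at 119 ± 8.99 CPM, and the shared subunit IL6ST at 107 ± 6.35 CPM. The study concerns interleukin-28, a type III interferon, whose receptor joins IFNLR1 and IL10RB. IFNLR1 was low but expressed, at 2.73, 3.49 and 2.51 CPM, and IL10RB was at 39.4, 43.5 and 42.9 CPM. Of the subunits for the other interferons, IFNAR2 and IFNAR1 were at 82.5 ± 4.48 and 52.4 ± 1.29 CPM, and IFNGR2 and IFNGR1 at 59.9 ± 1.60 and 9.56 ± 0.664 CPM. Among the interferons listed, IFNL2, IFNL3 and IFNB1 had 0 counts and IFNL1 had 1, 1 and 0. IFNL2 and IFNL3 are near-identical copies, whose reads could be lost as reads with several alignments.

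Chemokine receptors were mostly silent. At the floor were 21 of 32 receptors for chemokines and lipid mediators (65.6%, beside 32.5% of protein-coding genes), 18 with 0 counts. The other 11 were expressed. CXCR4, the receptor of CXCL12, was at 2.37, 2.62 and 1.89 CPM, while ACKR3, CXCR1 and CXCR2 had 0 counts and CXCR3 had 2, 0 and 0. The higher levels were those of receptors for lipids and proteases. LPAR1, for lysophosphatidic acid, was at 25.4, 30.2 and 27.8 CPM, F2R, for thrombin, at 13.8 ± 0.792 CPM, and PTGER4, for prostaglandin E2, at 10.7 ± 0.305 CPM. F2RL1 and LPAR2 were at 10.1 ± 2.30 and 9.13 ± 1.78 CPM.

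Of 40 cytokines and chemokines, 15 were expressed (37.5%, beside 58.1% of protein-coding genes) and 16 were at the floor (40%, beside 32.5%). CSF1, the macrophage growth factor, led at 86.8, 90.5 and 84.7 CPM. MIF was at 40.2 ± 3.87 CPM, and CXCL8, a neutrophil chemokine, at 28.7 ± 3.21 CPM, with IL18 and IL32 at 26.3 ± 2.07 and 26.1 ± 2.97 CPM in overlapping ranges. IL11, of the IL-6 family, was at 20.3, 24.0 and 24.2 CPM, whereas IL6 itself had 4, 8 and 9 counts. IL1A and IL1B had 0 counts, and IL1RN had 0, 4 and 1. CXCL12 had 0 counts in each library.

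Of 18 factors that act on bone, 8 were expressed (44.4%, beside 58.1% of protein-coding genes). DKK1, a secreted inhibitor of Wnt signalling in osteoblasts, was at 59.6, 69.2 and 69.3 CPM, and no other member had a mean of 10 CPM. NOG, an inhibitor of bone morphogenetic proteins, was at 7.02 ± 0.727 CPM, EDN1 at 5.38 ± 1.11 CPM, BMP6 at 3.01 ± 0.816 CPM and BMP4 at 2.76 ± 0.708 CPM. PTHLH, known to stimulate osteoclast formation through osteoblasts, was at 1.64, 2.37 and 2.32 CPM. TNFSF11, for RANKL, had 0 counts, its decoy receptor TNFRSF11B had 1, 4 and 2, and SPP1 had 0, 2 and 1.

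Matrix and basement membrane genes were expressed in 24 of 27 cases (88.9%, beside 58.1% of protein-coding genes), with a median of 21.1 CPM. LGALS1, for galectin-1, was at 776, 774 and 795 CPM. Chains of laminin of epithelial basement membranes differed in level, with LAMA3 at 17.8, 19.7 and 22.2 CPM, below LAMB3 in every library. LAMC1, LAMA5 and LAMB1, of other laminins, were at 133 ± 3.16, 74.9 ± 3.80 and 23.2 ± 0.556 CPM, and LGALS3 was at 51.0 ± 1.19 CPM.

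Of 30 proteases and inhibitors, 20 were expressed (66.7%, beside 58.1% of protein-coding genes) and 10 had means of 100 CPM or more. PLAU, the urokinase activator of plasminogen, was at 361, 445 and 497 CPM, and its receptor PLAUR at 161, 162 and 156 CPM. The tissue-type activator PLAT had 5, 3 and 3 counts, while the inhibitor SERPINE2 was at 30.8 ± 0.770 CPM. Of 22 members tested, 7 differed between libraries beyond counting error, among them PLAU, beside 13.5% of all genes tested. All 7 were among the 16 members with a mean of 10 CPM or more, and over all tested genes of that level the share was 20.4%. CSTB, an inhibitor of cathepsins, was at 427 ± 16.9 CPM, and the cathepsins CTSB and CTSL were at 389.6 ± 4.22 and 341 ± 22.2 CPM. TIMP2, an inhibitor of metalloproteinases, was at 278 ± 3.29 CPM. MMP2, MMP3, MMP7, MMP10 and TIMP3 had 0 counts.

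Of 20 surface antigens that are targets of therapy, 15 were expressed (75%, beside 58.1% of protein-coding genes). SLC39A6, a zinc transporter, was at 296, 295 and 298 CPM. CD46 and CD276, for B7-H3, were at 53.2 ± 0.474 and 50.2 ± 5.18 CPM in overlapping ranges, and ROR1 was at 47.8 ± 0.348 CPM. PSCA was at 4.85 ± 0.521 CPM. FOLH1, which encodes prostate-specific membrane antigen, had 0 counts, as had CEACAM5 and NECTIN4.

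All 30 tumor suppressors and oncogenes of the list were expressed, beside 58.1% of protein-coding genes, with a median of 56.1 CPM. CDKN2A, which encodes the cell cycle inhibitor p16 and ARF, was at 662, 679 and 689.8 CPM, 42.9 ± 1.43 times its neighbour CDKN2B and 15.2 ± 0.965 times RB1, whose product acts downstream of p16. RB1 was at 40.8, 45.1 and 48.2 CPM. CDKN1A, another cell cycle inhibitor, was at 61.5 ± 3.97 CPM. AURKA, a mitotic kinase, was at 306 ± 14.8 CPM, above CCND1 at 279 ± 1.82 CPM and CDK4 at 156 ± 1.91 CPM. MSH6, a mismatch repair gene, was at 132 ± 4.22 CPM. A count of reads says nothing of whether the protein is made or intact.

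Cancer-testis antigens, which are silent in most adult tissue, were at the floor in 23 of 26 cases (88.5%, beside 32.5% of protein-coding genes). The expressed members were DDX43 at 34.9, 32.2 and 37.9 CPM, PRAME at 18.7, 19.4 and 18.5 CPM and BRDT at 16.6, 16.8 and 16.7 CPM. MAGEA1, MAGEA2, MAGEA3, MAGEA4 and MAGEA6 had 0 counts. Some of these genes are near-identical copies, and their reads could be lost as reads with several alignments.

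Genes of other cell types were mostly at the floor. This held for 15 of 18 for leukocytes, 7 of 10 for endothelium, 9 of 16 for MSCs and 20 of 26 for other organs. Among all protein-coding genes, 32.5% were at the floor. Of 18 leukocyte genes, 1 was expressed, CD68 at 5.40 ± 0.372 CPM, a lysosomal protein that other cells also make, and the defining genes PTPRC, CD3E, CD3D and CD4 had 0 counts, with CD8A at 1, 0 and 0. The 18 leukocyte genes together summed to 6.86, 5.93 and 6.05 CPM. Of 10 endothelial genes 0 were expressed, with VWF, KDR and TEK at 0 counts, PECAM1 at 0, 1 and 2 and CDH5 at 1, 0 and 0, and their sum was 1.15, 1.43 and 1.83 CPM. Of 16 MSC markers 5 were expressed, NT5E at 152, 171 and 165 CPM, MCAM at 12.9, 20.8 and 34.4 CPM, NES at 5.90 ± 0.866 CPM, LEPR at 3.26 ± 0.282 CPM and COL1A1 at 2.46 ± 0.355 CPM. Among the other MSC markers, THY1 and PDGFRB had 0 counts, ENG had 0, 1 and 0 and PDGFRA had 0, 3 and 0. Of 26 genes of other organs, 2 were expressed, MBP at 92.7, 93.5 and 91.8 CPM and NEFL, a neurofilament, at 7.55 ± 0.828 CPM. MBP is named for myelin basic protein, and counts per gene do not tell its transcripts apart. ALB, TTR, INS and GCG had 0 counts, and APOA1 had 8, 14 and 7.

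The genes with the highest levels were of general cell function. MT-RNR2, the large mitochondrial rRNA, held 16674, 16727 and 16588 CPM, and RPS29, of the small ribosomal subunit, 11816, 10975 and 10687 CPM. Both chaperones of the cytosolic HSP90 class were among the 20 highest, HSP90AA1 at 7519 ± 318 CPM and HSP90AB1 at 6310.3 ± 192 CPM. Cytoskeletal genes were ACTG1 at 6329 ± 228 CPM and TUBA1B at 3467 ± 114 CPM. MT2A, a metallothionein, and S100A6, a calcium-binding protein, were at 4182 ± 114 and 4179 ± 224 CPM, and the nuclear RNA MALAT1 was at 4614 ± 256 CPM. The others were MT-ND4, MT-ATP6, MT-CO3, MT-CO2, MT-ND2 and MT-ND3 with MT-RNR1 from the mitochondrial chromosome, and RPS27A, RPS24, RPL30 and RPLP1 of the ribosome. These 20 genes held 11.3% of counts and the 100 highest 25.6%. The mitochondrial chromosome held 5.86% ± 0.145 of counts, and 83 genes of cytosolic ribosomal proteins held 12.02% ± 0.0906.

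Some families and neighbourhoods, grouped here after their levels were seen, were silent as a whole or nearly so. Of 380 genes for olfactory receptors, 379 were at the floor (99.7%, beside 32.5% of protein-coding genes), and all 39 beta-defensin genes were. Of 94 genes for keratin-associated proteins of hair, 92 were at the floor (97.9%), with KRTAP2-3 at 6.82 CPM. Keratins were less uniform, with 42 of 55 at the floor (76.4%) and 9 expressed. By contrast, 385 of 512 genes named ZNF, for zinc finger, were expressed (75.2%, beside 58.1% of protein-coding genes). So were 37 of 40 proteasome subunit genes (92.5%) and 77 of 78 genes of mitochondrial ribosomal proteins (98.7%). In the order of protein-coding genes along chromosomes 1 to 22 and X, 207 runs of 5 or more neighbours at the floor held 1853 genes, so most of the 6386 protein-coding genes at the floor lay outside such runs. The longest was one of 65 genes on chromosome 11 (GRCh38 48216810 to 57237314, from OR4B1 to APLNR), a region of olfactory receptor genes around the centromere, with 0 counts in all. A run of 47 genes on chromosome 1 (247416156 to 248755739, NLRP3 to LYPD8) had 2 counts in all. A run of 36 genes on chromosome 21 (29536933 to 31038476, GRIK1 to KRTAP19-8) had 0 counts. On chromosome 4, 31 genes from TMPRSS11E to JCHAIN (68447449 to 70686816) had 4 counts. By chromosome, the share of protein-coding genes that were expressed ran from 43.5% on X and 45.7% on chromosome 21 to 63.4% on chromosome 9.

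The 3 libraries differed from each other beyond counting error for part of the genes. The chi-square test called 2133 of 15813 genes (13.5%), and 1776 of 8723 genes with a mean of 10 CPM or more (20.4%). Of 406 tested genes on any list, 66 were called, and of 239 with a mean of 10 CPM or more, 60. The sizes were small, with a biological coefficient of variation of 5.27% over all tested genes (edgeR, fitted without groups). Among genes of 10 CPM or more, the highest library was over 1.5 times the lowest for 56 and over 2 times for 9. By the size of the statistic the first 10 were MT-ND2, RPS29, PTMA, MT-ND4, RPL23A, PKM, MT-ATP6, RPS3, MT-CO2 and CERS2, genes with many counts, in which ratios of highest to lowest library were between 1.11 and 1.81. CERS2, a ceramide synthase, was at 125, 179 and 225 CPM and PTMA, for prothymosin, at 1329, 1749 and 1629 CPM. By the ratio itself, genes named after their values were seen, LPCAT4, an enzyme of phospholipid synthesis, was at 4.92, 6.43 and 24.0 CPM, HIBADH, of valine breakdown, at 15.1, 27.6 and 50.8 CPM and MCAM at the values above. In these 3 genes replicate 1 was lowest and replicate 3 highest. The same held for all 20 genes with the largest ratio among those of 10 CPM or more. Replicate 1 was the lowest library for 858 and the highest for 750 of the 1776 called genes, replicate 3 for 690 and 757, and replicate 2 for 228 and 269. Without replicate 1 the test called 462 of 14903 genes, all among those called with 3 libraries, without replicate 3 it called 1010 of 14897, and without replicate 2 it called 2048 of 14914. The labels give no batch, and what sets replicates 1 and 3 apart was not tested.

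**Figure D5:**
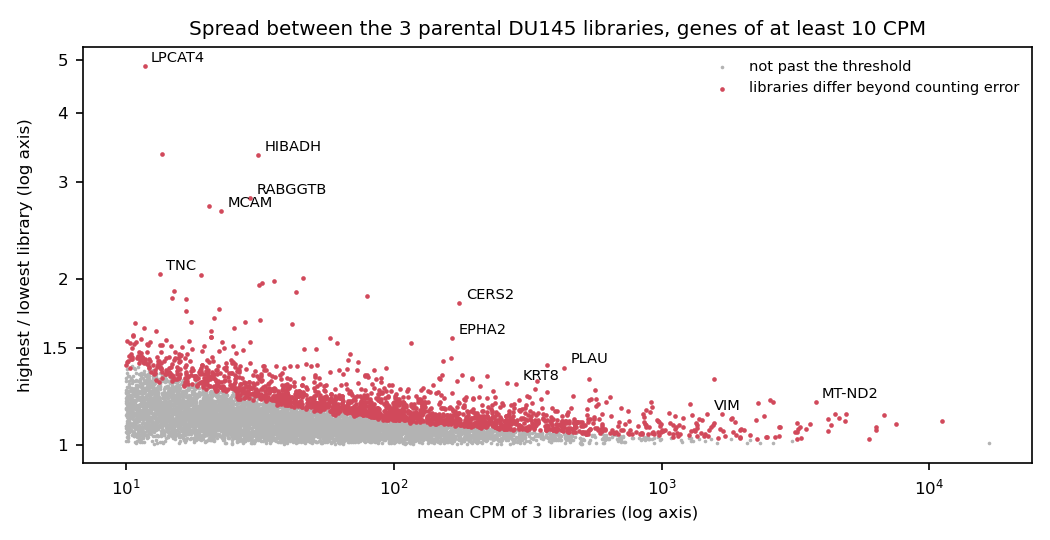
Ratio of the highest to the lowest of the 3 F0 DU145 libraries (log axis) against mean CPM (log axis) for each gene with a mean of at least 10 CPM, coloured where the libraries differed beyond counting error. Most genes lay under a ratio of 1.5, and LPCAT4, HIBADH, RABGGTB and MCAM were among the 9 genes above 2.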

How the data were processed

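The 3 F0 DU145 libraries were made from total RNA with the Lexogen QuantSeq 3′ mRNA-Seq FWD kit. The deposited table holds raw counts per gene, without normalization. The submitters' processing notes name STAR 2.5.2a, HTSeq 0.6.0 and GRCh38. The annotation release and the strand setting are not given in the sources used here, so overlapping and antisense genes are uncertain. The 3 columns of F2 DU145 were not used, nor was the rat table.

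Counts were scaled to CPM over the 60107 Ensembl gene rows, of which 56531 matched GENCODE release 29 for names, types and positions. Rows that name no gene stayed out: reads outside genes were 9.60% to 10.0% and ambiguous reads 1.49% to 1.50% of uniquely placed reads. The 92 spike-in rows held 0 counts. No group was compared. Spread between libraries was tested for genes with at least 15 counts in sum (chi-square, 2 degrees of freedom, scipy 1.17.1), after a check on simulated data. Scaling factors came from edgeR 4.0.16 and DESeq2 1.42.0 in R 4.3.3. The 24 gene lists (665 genes) and their members were chosen with earlier results of these data known. Named genes are the 5 markers, the first 5 and the 5 highest members of each list, all keratin and HOX genes at 1 CPM, the 20 highest genes and the 10 with the largest spread statistic, beside others chosen after their values were seen. Some listed genes are not reported here. Reads were counted without molecular identifiers, so the floor covers counting error only. A planned description of promoter base composition was not run here, since no human promoter sequences were used.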

Additional observations from a re-analysis of the deposited data

How the results depend on the processing

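No paired analysis was possible because no groups were compared and every value comes from 1 group. TMM and DESeq2 size factors moved no marker by more than 1 SD and no count by over 1.5 times. Without the mitochondrial chromosome in the library sum, KRT18 rose to 530 CPM and EGFR to 217 CPM. At 10 CPM in all 3 libraries 8498 genes, in place of 12806 at 1 CPM, were counted, and 13 of 24 lists moved by over 1.5 times; at 0.5 CPM, at 2 CPM and for a mean of 1 CPM, 1 list each did. Leaving out 1 library gave 462 to 2048 genes that differed beyond counting error, in place of 2133, and the cause was not tested. Leaving out each library moved no list count by over 1.5 times. With 0 or with 10 counts as the floor, 5002 and 7379 protein-coding genes were silent. At this depth the floor of 3 counts in a library was 0.182 to 0.187 CPM, and levels below it were not told from 0. Reads with several alignments were not assigned, which limits genes with near-identical copies. Their alignments were 34.4% to 35.6% of the rows' total, a share in which 1 read can count more than once.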
